A study of Mus musculus with 5 samples.

Results

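The Notch pathway was described through 10 genes chosen by symbol from the 52143 genes measured in the colon tumors: the receptors Notch1, Notch2 and Notch3, the ligands Dll1, Dll4, Jag1 and Jag2, the DNA-binding effector Rbpj, and the target genes Hes1 and Hey1. RNA-Seq had been performed on tumors from 2 Control and 3 SIGLEC12 mice, with 1 sample per mouse. Control mice (replicates 1 and 4) were Villin1-Cre-ERT littermates, carrying a tamoxifen-inducible Cre recombinase driven by the Villin1 promoter of intestinal epithelium. SIGLEC12 mice (replicates 2, 3 and 4) were SIGLEC12-Villin1-Cre-ERT, carrying in addition a heterozygous knock-in at ROSA26 from which human SIGLEC12, encoding the lectin Siglec-XII, is expressed under the CAG promoter once Cre has removed an EGFP-stop cassette. The females were 8 weeks old at the start, and both groups received tamoxifen for 5 days at 10 mg/ml, azoxymethane (AOM, a carcinogen) at 10 mg/kg, and cycles of 2.0% dextran sodium sulfate (DSS, which injures the colon epithelium) for 5 days with 14 days of recovery, until harvest on day 87. The series text gives 3 mice for each condition, of which 1 Control mouse is not analysed here.

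Notch receptors are single-pass membrane proteins activated by ligands on a neighboring cell. Ligand binding exposes the receptor to the ADAM proteases and then to the γ-secretase complex, which frees its intracellular domain to enter the nucleus, bind Rbpj and switch on genes of the Hes and Hey families. In intestinal crypts, Notch signaling through Notch1, Notch2 and the ligands Dll1 and Dll4 maintains stem and absorptive progenitor cells, and its target Hes1 represses Atoh1, the transcription factor that commits cells to the secretory lineage. Notch3 is best known in the mural cells of vessels, Dll4 and Hey1 are prominent in endothelium, and Jag2 and Notch3 are also expressed in stratified squamous epithelium. The question asked here was how these genes differed between tumors with and without epithelial Siglec-XII.

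Expression was deposited as log2(TPM + 1), in which TPM is the length-normalized abundance of a gene relative to all RNA of its sample. Sequencing depth is not kept by TPM and is unknown here. Protein-coding genes took 5.70% and 6.73% of the total in Control against 8.75% to 9.72% in SIGLEC12. The 4 most abundant entries of each sample took 83.8% to 85.9% in Control and 77.2% to 80.0% in SIGLEC12. As deposited, the median log2 fold change (SIGLEC12 minus Control) of the 10338 tested genes was 0.38. After rescaling each sample to the same protein-coding total it was 0.0085, and both scales are given below. The tissue label was checked against markers of columnar epithelium, whose 9 genes summed to 239 and 674 TPM in Control and 812 to 1405 TPM in SIGLEC12. A sum of 12 stratified squamous markers, described below, exceeded the columnar sum in Control replicate 1 (2829 against 239 TPM). It also did so in SIGLEC12 replicate 2 (1019 against 861 TPM), and it was close to it in Control replicate 4 (667 against 674 TPM). In bulk tumor RNA, fewer cells of a type and less RNA per cell cannot be told apart.

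Among the 10 genes, 0 were called at the adjusted threshold (limma, Benjamini-Hochberg adjusted p under 0.05 and at least 2-fold), as were 0 of all 10338 genes tested (0%). At an unadjusted limma p of at most 0.05, 3449 genes were higher and 94 lower, and the smallest adjusted p was 0.0974. Genes reaching 1 TPM in 2 or more samples were tested. Notch1, Notch2, Notch3, Jag1, Jag2, Rbpj and Hes1 passed, whereas Dll1, Dll4 and Hey1 did not and are given by their values. Of the 7 tested genes, 3 had a higher and 4 a lower mean in SIGLEC12, with a median log2 fold change of -0.25. Over all 10 genes, in the fit with no filter, the median was -0.09. The groups did not overlap, with SIGLEC12 higher, for 2 of the 7 (Notch1 and Rbpj), where 54.1% of all genes tested were of this kind. SIGLEC12 was lower without overlap for 1 of the 7 (Jag2), against 1.67% of all genes. The unadjusted threshold (p of at most 0.05 together with a 2-fold change) was passed by 0 of the 7 in either direction, against 3.97% of all genes higher and 0.445% lower.

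**Figure D1:**
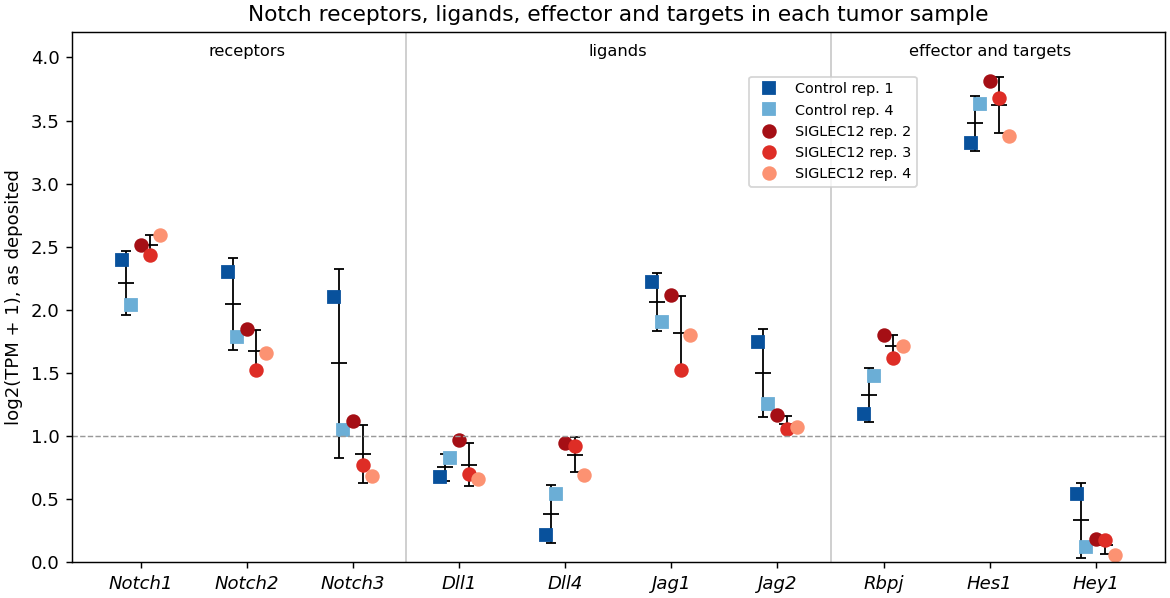
Deposited log2(TPM + 1) of the 10 Notch genes in each tumor sample. Squares are the 2 Control and circles the 3 SIGLEC12 samples, black bars give mean ± SD, and the dashed line marks a TPM of 1. Control replicate 1 is the highest sample for Notch2, Notch3, Jag1, Jag2 and Hey1, and the lowest for Dll4, Rbpj and Hes1.

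The levels of the 10 genes spanned a wide range of TPM. Hes1 was the most abundant, at 10.9 ± 1.68 TPM (SD, n = 5), followed by Notch1 at 4.30 ± 0.73, Jag1 at 2.82 ± 0.71, Notch2 at 2.60 ± 0.79 and Rbpj at 1.97 ± 0.48. Jag2 (1.43 ± 0.53 TPM), Notch3 (1.37 ± 1.10), Dll1 (0.704 ± 0.160), Dll4 (0.609 ± 0.317) and Hey1 (0.169 ± 0.165) followed. Hes1 exceeded Notch1, Notch1 exceeded Jag1, and Notch3 exceeded Dll1 in 5 of 5 samples (exact sign-flip permutation p = 0.0625, two-sided, the smallest that 5 samples allow). The other neighbors in this order exchanged places in at least 1 sample, with an exact sign-flip permutation p between 0.125 and 0.875. At this n their order was not resolved.

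Of the receptors, Notch1 (GRCm38 chr2:26457903-26516663, minus strand) was the most abundant in every sample. Its log2(TPM + 1) was 2.39 in Control replicate 1 and 2.04 in Control replicate 4, and 2.52, 2.43 and 2.59 in SIGLEC12 replicates 2, 3 and 4. All SIGLEC12 samples therefore stood above both Control samples, although replicate 3 exceeded Control replicate 1 by little. The log2 fold change was 0.30 ± 0.18 (SE; adjusted p = 0.264 by limma), below the 0.38 of the median gene. It was 0.48 without Control replicate 1, 0.12 without Control replicate 4, and -0.15 after rescaling, with overlapping groups.

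Notch2 (chr3:98013527-98150361, plus strand), which acts beside Notch1 in crypt progenitors, was measured at 2.30 and 1.79 in Control and at 1.85, 1.53 and 1.66 in SIGLEC12. Control replicate 4 lay within the SIGLEC12 samples, and the log2 fold change was -0.37 ± 0.21 (SE; adjusted p = 0.237 by limma). Leaving out Control replicate 1 gave -0.11, and leaving out Control replicate 4 gave -0.62. After rescaling the log2 fold change was -0.78, and both Control samples were above all SIGLEC12 samples.

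Notch3 (chr17:32120820-32166852, minus strand) varied most among the tested members. It stood at 2.10 in Control replicate 1 and 1.05 in Control replicate 4, and at 1.11, 0.77 and 0.68 in SIGLEC12 replicates 2, 3 and 4. Control replicate 1 stood apart, with 3.29 TPM against 0.606 to 1.17 TPM in the other 4 samples. The log2 fold change was -0.72 ± 0.33 (SE; adjusted p = 0.168 by limma), or -0.19 without Control replicate 1. Leaving out Control replicate 4 instead gave -1.25, in a fit that assumes the lone Control sample to vary like the SIGLEC12 samples. After rescaling, the log2 fold change was -1.05 (limma unadjusted p = 0.038), and -0.40 without Control replicate 1.

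The ligands were each below 4 TPM in every sample. Jag1 (chr2:137081456-137116644, minus strand), a Serrate-type ligand and the most abundant of the 4, was measured at 2.22 and 1.90 in Control and at 2.12, 1.52 and 1.80 in SIGLEC12. Its groups overlapped, and the log2 fold change was -0.25 ± 0.22 (SE; adjusted p = 0.420 by limma). It was -0.09 without Control replicate 1, -0.10 without SIGLEC12 replicate 3, and -0.41 and -0.40 without Control replicate 4 and SIGLEC12 replicate 2. The related Jag2 (chr12:112907819-112929776, minus strand) stood at 1.75 and 1.25 in Control and at 1.17, 1.05 and 1.07 in SIGLEC12. Both Control samples were above the SIGLEC12 samples, by a small margin for Control replicate 4. The log2 fold change was -0.41 ± 0.19 (SE; adjusted p = 0.181 by limma), or -0.16 without Control replicate 1. Leaving out Control replicate 4 instead gave -0.65.

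The Delta-like ligands did not pass the filter. Dll4 (chr2:119325784-119335962, plus strand) was at 0.22 and 0.54 in Control and at 0.95, 0.92 and 0.69 in SIGLEC12, so that the groups did not overlap. In a fit with no filter its log2 fold change was 0.47 ± 0.18 (SE; adjusted p = 0.366 by limma), and after rescaling the difference of means was 0.31 with overlapping groups. Dll1 (chr17:15367354-15376872, minus strand) was at 0.68 and 0.83 in Control and at 0.97, 0.69 and 0.66 in SIGLEC12, a difference of 0.02. As deposited, the 8 endothelial markers summed to 1.11 and 1.35 TPM in Control and to 2.39 to 6.45 TPM in SIGLEC12. Of these, 0 of 8 passed the filter. A higher sum was not particular to endothelium, since the columnar, fibroblast and lymphoid sums were also higher in every SIGLEC12 sample. Within SIGLEC12, replicate 3 had more Dll4 than replicate 4 (0.888 against 0.613 TPM) but a lower endothelial sum (2.39 against 3.88 TPM). The marker sums were not rescaled. The part of endothelial cells in the Dll4 values was not tested.

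Rbpj (chr5:53466152-53657362, plus strand), through which all Notch receptors act on DNA, was at 1.17 and 1.47 in Control and at 1.80, 1.62 and 1.71 in SIGLEC12. The SIGLEC12 samples were all above the Control samples, and the log2 fold change was 0.39 ± 0.17 (SE; adjusted p = 0.153 by limma), or 0.24 without Control replicate 1. The value over all samples equalled the shift of the median gene within 0.01, and after rescaling the log2 fold change was 0.03 with overlapping groups.

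Promoter sequences (RefSeq, GRCm38.p6, 250 bases before to 50 after a start site) were matched for 8 of the 10 genes, and were searched on both strands for TGGGAA, the core bound by Rbpj. Those without a match were the target genes Hes1 and Hey1, whose promoters were therefore not searched. The core occurred in the promoter of 1 of the 8, Rbpj itself, and in 25.6% of 32851 mouse promoters of this length. Of the other Notch-related genes examined, Olfm4 had 1 core, 12 bases before its start, and Nrarp and Atoh1 had none in this window. A second Rbpj start site, whose window overlaps the first, had 1 core. The first Rbpj window and that of Olfm4 are shown because they hold the core, which is in capitals and reads TTCCCA where it lies on the opposite strand. The Rbpj window (chr5:53590096-53590395, plus strand) has cores beginning 149 and 65 bases before the start, and the Olfm4 window is chr14:80000052-80000351, plus strand.
Rbpj: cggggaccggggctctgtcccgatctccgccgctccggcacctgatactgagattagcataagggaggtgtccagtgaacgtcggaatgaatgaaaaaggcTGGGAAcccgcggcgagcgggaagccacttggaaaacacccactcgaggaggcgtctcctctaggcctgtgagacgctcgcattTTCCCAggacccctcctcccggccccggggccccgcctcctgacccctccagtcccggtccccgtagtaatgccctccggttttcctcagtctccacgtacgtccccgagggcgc
Olfm4: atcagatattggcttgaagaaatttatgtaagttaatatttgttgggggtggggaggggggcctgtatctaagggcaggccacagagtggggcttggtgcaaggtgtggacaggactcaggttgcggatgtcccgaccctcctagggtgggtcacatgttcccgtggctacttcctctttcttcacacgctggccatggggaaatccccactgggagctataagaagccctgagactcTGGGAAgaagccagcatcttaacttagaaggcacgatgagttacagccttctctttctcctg
None of the cores marked above matches the extended core GTGGGAA, which 6.38% of mouse promoters of this length hold. A match of these letters is a description and does not show binding.

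Hes1 (chr16:30064384-30067796, plus strand), the repressor of Atoh1, was at 3.32 and 3.63 in Control and at 3.81, 3.68 and 3.38 in SIGLEC12. The groups overlapped, with a log2 fold change of 0.15 ± 0.23 (SE; adjusted p = 0.634 by limma, 95% interval -0.40 to 0.69). Without Control replicates 1 and 4 in turn it was -0.0069 and 0.30. After rescaling it was -0.36 and every SIGLEC12 sample was below both Control samples. Hey1 (chr3:8663359-8667256, minus strand) was at 0.54 and 0.12 in Control and at 0.18, 0.17 and 0.05 in SIGLEC12, so that Control replicate 1 was the only sample with more than 0.2 TPM.

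Rescaling turned the direction of Notch1 and Hes1 and lowered the estimate of every tested member. After rescaling, 1 of the 7 had a higher and 6 a lower mean in SIGLEC12, with a median log2 fold change of -0.67. The groups did not overlap, with SIGLEC12 lower, for 5 of the 7 (Notch2, Notch3, Jag1, Jag2 and Hes1), against 16.8% of all genes, and with SIGLEC12 higher for 0 of the 7, against 15.6%. An unadjusted p of at most 0.05 (limma) with a lower mean was found for 4 of the 7 (Notch2, Notch3, Jag1 and Jag2), against 6.31% of all genes, and 0 of the 7 had one with a higher mean as deposited, against 33.4%. The unadjusted threshold was then passed by Notch3, which was lower (1.37% of all genes), and by none of the 7 in the other direction (0.368%). That call of Notch3 was lost without Control replicate 1 and with the length trend removed. The smallest rescaled limma adjusted p among the members was 0.457. Without Control replicate 1, the rescaled log2 fold changes of Notch2, Notch3, Jag1, Jag2 and Hes1 lay between -0.41 and -0.40.

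**Figure D2:**
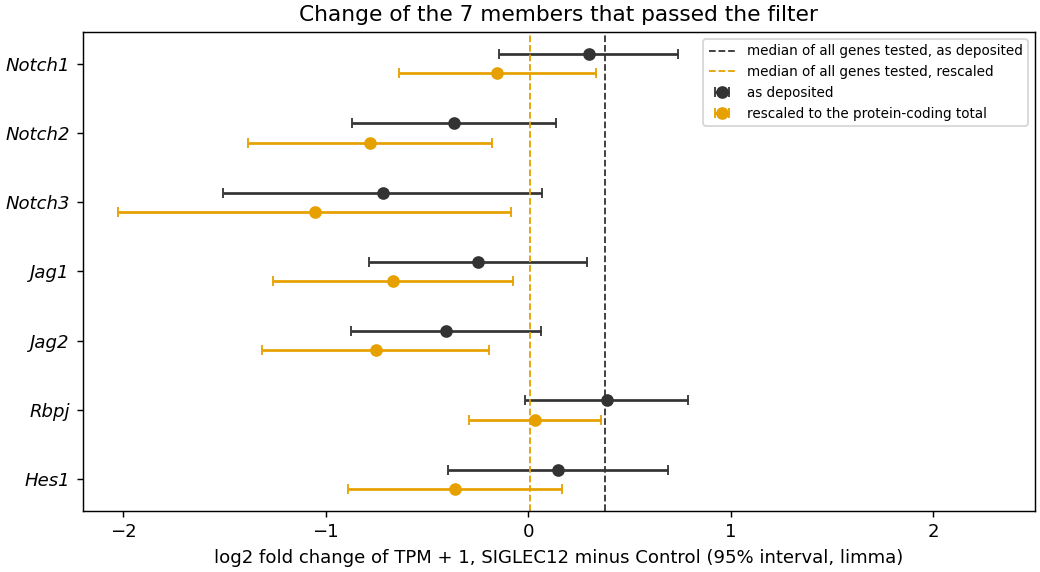
Log2 fold change of TPM + 1 (SIGLEC12 minus Control) of the 7 tested Notch genes, as deposited (black) and rescaled to the protein-coding total (orange), with 95% intervals from limma. Dashed lines mark the median of all genes tested on each scale, 0.38 and 0.0085. Rescaling lowers every estimate, and the intervals of Notch2, Notch3, Jag1 and Jag2 then lie below 0.

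Transcript length also moved with the fold changes. The tested protein-coding genes were put in 4 bins of nearly equal size, from the shortest to the longest transcripts. The median log2 fold change was 0.59, 0.44, 0.36 and 0.25 as deposited, and 0.19, 0.06, -0.01 and -0.14 after rescaling. The longest annotated transcripts of Notch1, Notch2 and Notch3 (9488, 10500 and 8016 bases) and of Jag1, Jag2 and Rbpj (5612, 5106 and 5485 bases) fall in the longest bin, whereas that of Hes1 has 1468 bases. With the length trend removed after rescaling, an alternative chosen after seeing the data, the log2 fold changes were 0.05 for Notch1, -0.56 for Notch2, -0.88 for Notch3, -0.57 for Jag1, -0.68 for Jag2, 0.13 for Rbpj and -0.51 for Hes1. An unadjusted p of at most 0.05 (limma) was then found for Jag2 and Hes1, and no longer for Notch2, Notch3 and Jag1. The groups of Notch3 and Jag1 then overlapped.

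To compare the genes without dependence on scaling, each was expressed as a percentage of its family's summed TPM in the same sample. Notch1 took 37.1% and 46.8% of receptor TPM in Control and 55.6%, 63.0% and 64.6% in SIGLEC12. The shares of Notch2 were 34.2% and 37.1% in Control against 30.6%, 26.9% and 27.6%, and those of Notch3 were 28.7% and 16.1% against 13.7%, 10.1% and 7.79%. All 3 shares separated the groups, with differences of 19.1, -7.24 and -11.9 percentage points. Among the ligands, Dll4 took 2.39% and 8.53% in Control and 14.3%, 20.0% and 12.9% in SIGLEC12, whereas Jag2 took 34.7% and 25.9% against 19.3%, 24.1% and 23.0%. The groups were again apart, by 10.3 and -8.20 points, and the Delta-like share (Dll1 plus Dll4) was 12.2 points higher in SIGLEC12. For these 6 shares the exact permutation p was 0.1, two-sided and the smallest that 2 against 3 samples allow, and the Benjamini-Hochberg value over the 9 shares computed was 0.15. The 6 are not independent, because a higher share of 1 gene lowers the rest of its family and Dll4 is counted again in Dll1 plus Dll4. The shares of Dll1 and Jag1 overlapped between groups (exact permutation p = 0.6 each), as did that of Hey1 in the sum of Hes1 and Hey1 (exact permutation p = 0.3, adjusted 0.386).

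**Figure D3:**
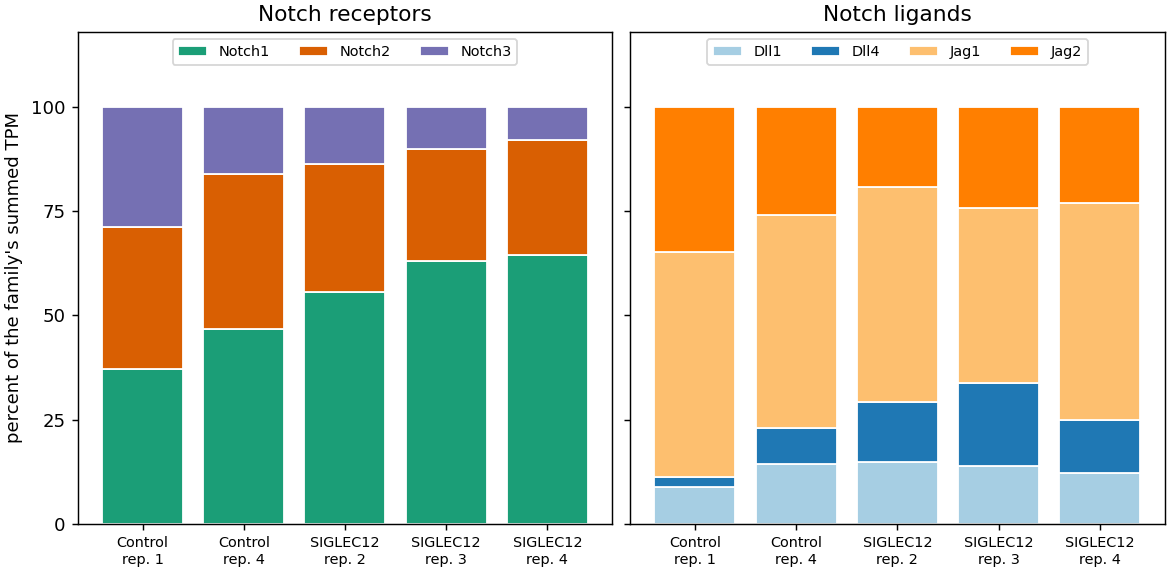
Percentage of the summed TPM of the 3 Notch receptors (left) and of the 4 ligands (right) taken by each gene in each sample. The Notch1 share is 37.1% and 46.8% in the Control samples and 55.6% to 64.6% in the SIGLEC12 samples, and the Dll4 share is 2.39% and 8.53% against 12.9% to 20.0%.

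Without Control replicate 1, the differences in share were 14.2 points for Notch1, -8.66 for Notch2, -5.57 for Notch3, 7.19 for Dll4, -3.79 for Jag2 and 6.35 for Dll1 plus Dll4. The receptor sums themselves were 11.5 and 6.62 TPM in Control and 8.49, 6.98 and 7.78 TPM in SIGLEC12, and the ligand sums were 6.78 and 5.35 TPM against 6.46, 4.44 and 4.77 TPM. Both sums were highest in Control replicate 1. Shares within a family remove scaling but not the difference in cell types between samples or the trend with transcript length. The longest transcripts of Dll1 and Dll4 (3581 and 3747 bases) are shorter than those of Jag1 and Jag2 (5612 and 5106 bases). No share was computed with the length trend removed.

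Control replicate 1 also stood apart in markers of another epithelium. A list of 12 genes of stratified squamous epithelium (keratins such as Krt5 and Krt14, the transcription factor Trp63 and adhesion genes), chosen after their values were seen, summed to 2829 TPM in Control replicate 1, 667 TPM in Control replicate 4 and 480 to 1019 TPM in SIGLEC12. All 12 passed the filter, and Control replicate 1 was the highest sample for 9 of them. The same sample had the highest Notch2, Notch3, Jag1, Jag2 and Hey1, and the lowest Dll4, Rbpj and Hes1. For Notch1 and Dll1 it was neither. Its columnar epithelial sum was the lowest (239 TPM). Markers of smooth muscle and mural cells, 8 genes most of which visceral smooth muscle also expresses, summed to 45.6 and 52.5 TPM in Control and 46.4 to 115 TPM in SIGLEC12 with the maximum in SIGLEC12 replicate 2. All 8 had a higher mean TPM in SIGLEC12. Rgs5 and Pdgfrb, which did not pass the filter, had log2 fold changes of 0.67 and 0.36 in the fit with no filter, against -0.72 for Notch3. Fibroblast markers were at 8.71 and 10.5 TPM in Control and 18.0 to 57.9 TPM in SIGLEC12. Myeloid sums overlapped (3.45 and 8.94 against 4.39 to 19.5 TPM). Lymphoid sums were at most 2.06 TPM, with Cd8a, Cd79a and Mzb1 among the genes under 0.1 TPM in every sample. The part of these cell types in the Notch values was not tested.

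**Figure D4:**
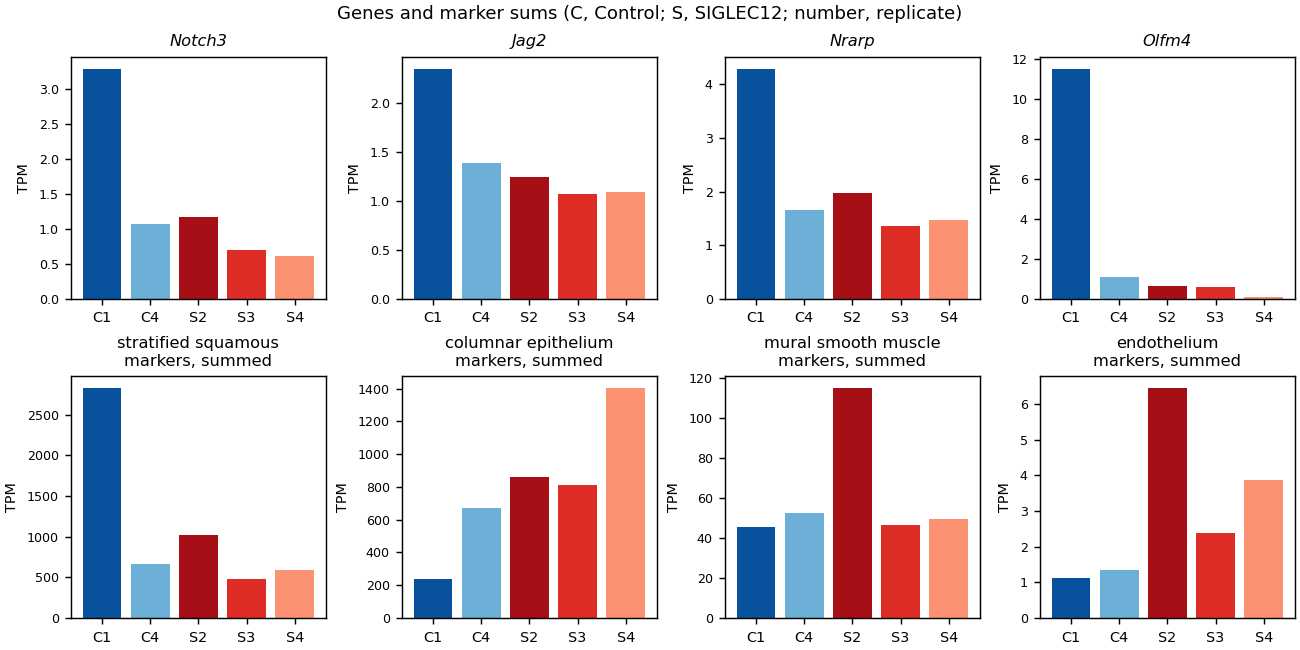
TPM in each sample (C, Control; S, SIGLEC12; the number is the replicate) of Notch3, Jag2 and the Notch targets Nrarp and Olfm4 (top), and of 4 summed marker lists (bottom). Control replicate 1 is highest for the 4 genes and for the stratified squamous sum (2829 TPM), and lowest for the columnar epithelial sum (239 TPM). The 4 genes were picked from those highest in that sample, whereas Dll4, Rbpj, Hes1 and Hes6, not shown here, were lowest in it.

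The remaining pathway was described through 7 lists holding 51 further genes, of which 32 were tested. As deposited, 26 had a higher and 6 a lower mean in SIGLEC12, with a median log2 fold change of 0.33 against 0.38 for all genes. At an unadjusted p of at most 0.05 (limma) 10 of the 32 were higher, beside 33.4% of all genes tested, 1 (Olfm4) was lower, and 0 passed the adjusted threshold. After rescaling, 15 were higher and 17 lower in mean, with a median of -0.03.

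The next list held the enzymes that cleave the receptors. Of 10 genes listed, 8 were tested, and in all 8 the SIGLEC12 samples were above both Control samples, as for 54.1% of all genes, with a median log2 fold change of 0.63. Of the 8, Psen2 passed the filter through SIGLEC12 alone (below 1 TPM in both Control samples, 1.09 to 1.33 TPM in SIGLEC12), so that its direction was set by the filter. After rescaling, 4 of the 8 were higher and 1 was lower without overlap, and the median was 0.18. The leading genes were the γ-secretase subunits Psenen (0.82 ± 0.22, SE), Ncstn (0.78 ± 0.21) and Aph1a (0.66 ± 0.19), each with a limma adjusted p of 0.0974. Their rescaled log2 fold changes were 0.30, 0.27 and 0.18. The sheddase Adam10 had a log2 fold change of 0.59 as deposited and 0.09 after rescaling.

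**Figure D5:**
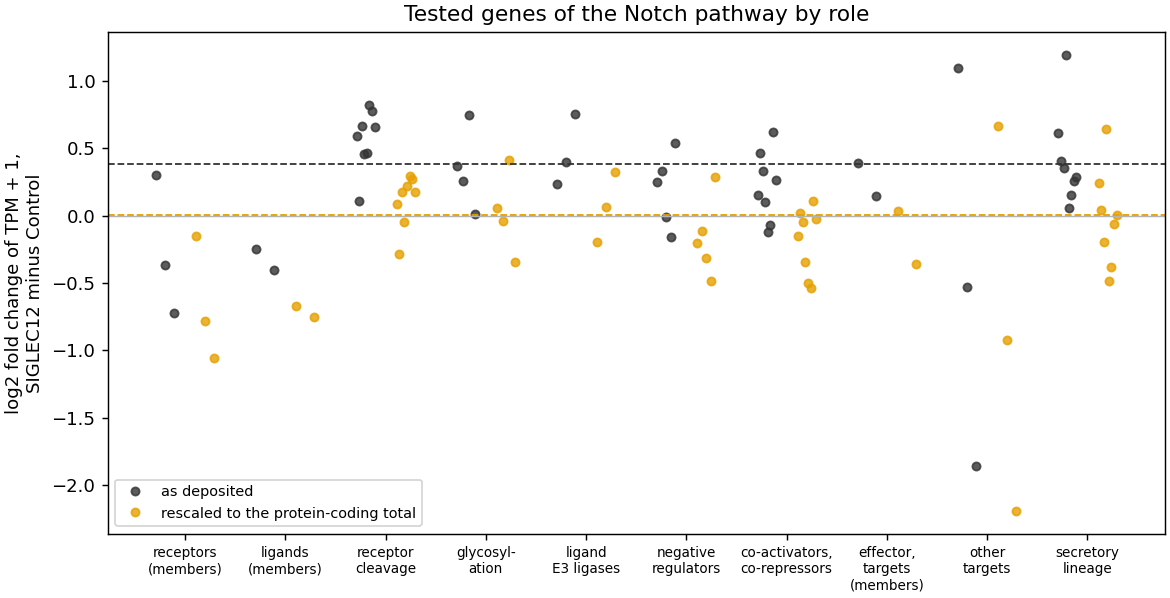
Log2 fold change of TPM + 1 (SIGLEC12 minus Control) of every tested gene of the Notch pathway except Notch4, by role, as deposited (black) and rescaled (orange). Dashed lines mark the median of all genes tested on each scale. The 8 receptor-cleavage genes lie at 0.11 to 0.82 as deposited, while Notch2, Notch3, Jag1 and Jag2 lie at or below -0.25.

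Among the glycosyltransferases that tune ligand choice, 4 of 5 were tested. All 4 had a higher mean as deposited, as did 9016 of all 10338 genes, against 2 of 4 after rescaling. Lfng, a Fringe enzyme that favors Delta-like over Jagged ligands, was at 0.95 and 1.24 in Control and at 1.85, 2.08 and 1.59 in SIGLEC12. The change on the log2 scale was 0.74 ± 0.20 (SE; adjusted p = 0.0974 by limma), and 0.41 after rescaling with the groups still apart. Pofut1, which adds O-fucose to the receptors, and Poglut1, which adds O-glucose, had log2 fold changes of 0.37 and 0.26 as deposited. After rescaling these were 0.06 and -0.04. Of the ubiquitin ligases that activate ligands, 3 of 5 were tested. As deposited, the log2 fold changes were 0.76 for Neurl3 (0.33 without Control replicate 1), 0.40 for Neurl1b and 0.24 for Mib1. After rescaling they were 0.32, 0.07 and -0.20.

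Of 7 negative regulators, 5 were tested. As deposited, 3 had a higher mean: Dtx4 (0.54, or 0.22 without Control replicate 1), the ligase Itch (0.33) and the endocytic adaptor Numb (0.25). After rescaling, 1 of the 5 had a higher mean, and Dtx4, Itch and Numb were at 0.29, -0.12 and -0.20. Of 10 coactivators and corepressors of the Rbpj complex, 8 were tested. A higher mean was found for 6 of the 8 as deposited, against 2 of 8 after rescaling. Snw1, a coactivator, had a log2 fold change of 0.46, and the corepressors Ctbp1 and Cir1 had 0.62 (0.34 without Control replicate 1) and 0.26. After rescaling, Snw1, Ctbp1 and Cir1 were at 0.02, 0.11 and -0.03. For the other receptors and atypical ligands, Notch4 alone of 5 was tested, at 0.14 and 1.10 in Control and at 0.57, 0.39 and 1.71 in SIGLEC12, with overlapping groups.

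Of 9 further targets, 3 were tested. Olfm4, a gene that depends on Notch, was at 3.65 and 1.07 in Control and at 0.71, 0.68 and 0.11 in SIGLEC12. It passed the filter through the Control samples alone, all SIGLEC12 samples being at or below 0.641 TPM, so its log2 fold change of -1.86 ± 0.69 (SE) is given as a description. Without Control replicate 1 it was -0.57. Nrarp, a feedback inhibitor induced by Notch, was at 2.40 and 1.41 in Control and at 1.58, 1.24 and 1.31 in SIGLEC12, with a log2 fold change of -0.53 that became -0.03 without Control replicate 1. Hes6, a family member that is not a canonical target and can oppose Hes1, was at 1.45 and 2.59 in Control and at 2.93, 3.67 and 2.76 in SIGLEC12. Its log2 fold change was 1.10 (limma unadjusted p = 0.035), and 0.67 with overlap after rescaling. Without Control replicate 1 it was 0.52 as deposited and 0.15 rescaled.

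Atoh1, the secretory commitment factor repressed by Hes1, was at 1.28 and 1.48 in Control and at 2.26, 1.82 and 1.91 in SIGLEC12. All SIGLEC12 samples were above both Control samples, with a log2 fold change of 0.61 ± 0.19 (SE; adjusted p = 0.102 by limma), and 0.24 after rescaling with the groups still apart. Of 10 secretory lineage genes, 8 were tested and all 8 had a higher mean as deposited, as did 9016 of all 10338 genes, against 4 of 8 after rescaling. Without Control replicate 1, 4 of 8 were higher as deposited, and the goblet cell genes Muc2, Fcgbp and Clca1 were at -0.51, -0.45 and -0.41 and the enteroendocrine gene Chga at -0.08. The goblet cell genes Tff3 and Spdef had log2 fold changes of 1.19 and 0.40 as deposited (0.78 and 0.30 without Control replicate 1) and 0.65 and 0.04 after rescaling.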

How the data were processed

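Tumor RNA was sequenced from 2 Control and 3 SIGLEC12 mice, grouped by the treatment label. The authors deposited log2 values for 52143 genes, which were log2(TPM + 1): 2 to the power of each value, minus 1, summed to 999999 to 1000001 per sample. The labels name kallisto 0.45.0, GRCm38 and a stranded total RNA kit, whereas the study's methods name an mRNA kit and a human reference. The methods also name 3 technical libraries per sample, and whether these were averaged is not stated. TPM keeps no depth, so no counting interval was given. The number of value columns left unmapped was 0. Each row names 1 transcript beside its gene, and the values were read as gene totals. For Notch2 and Hes1 the transcript named is annotated as a retained intron and a processed transcript, neither of them coding. Human SIGLEC12 matched no symbol, so the transgene was not analysed here.

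Genes with TPM of at least 1 in at least 2 samples entered lmFit and eBayes (with a trend) of limma 3.58.1 under R 4.3.3, on log2(TPM + 1), with Benjamini-Hochberg adjustment over all 10338. The pseudocount of 1 understates changes of low genes. The methods name DESeq2, which needs counts and was not used. The thresholds were an adjusted p under 0.05, or an unadjusted p of at most 0.05, each with a 2-fold change. Single values were compared by exact permutation over the 10 ways to assign 2 of 5 samples. The fit was tested on simulated data. Coordinates and transcript lengths are from GENCODE M21, which holds 98.45% of the gene identifiers. Members and lists were chosen with earlier results of these data known. By rule, every member, Atoh1, Olfm4 and up to 3 tested genes per pathway or secretory list with the smallest p were named. Adam10, Psen2, Muc2, Fcgbp, Clca1, Chga and the markers were named after their values were seen. Alternatives were another pseudocount, filter, scaling or weighting, and leaving out each sample.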

Additional observations from a re-analysis of the deposited data

How the results depend on the processing

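With 2 Control samples, leaving out either moved many values, and since depth is unknown the low values of Dll1, Dll4 and Hey1 have no known counting error. The fits with 1 Control sample assume that it varies like the SIGLEC12 samples. No paired analysis was possible because replicate 4 is the single number found in both groups. Causes of the changes below were not tested.

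As deposited, 410 genes were higher and 46 lower at the unadjusted threshold, so that 89.9% of calls were higher. This share was 21.1% after protein-coding rescaling (38 higher, 142 lower), 25.8% with median-ratio size factors (46 and 132), and 37.8% with the length trend removed (48 and 79). Rescaled without Control replicate 1 there were 27 higher and 223 lower, and without Control replicate 4 there were 381 lower, with 1 higher and 2 lower at the adjusted threshold. A pseudocount of 0.1 gave 1087 higher, and a filter of 5 TPM gave 19 lower. Leaving out each sample gave 143 to 1366 higher and 51 to 146 lower at the unadjusted threshold, and 0 to 962 higher and 0 to 97 lower at the adjusted threshold, the highest counts without Control replicate 4 and the 143 without Control replicate 1.

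Of the members, 1 was lower at the unadjusted threshold under either rescaling, 3 when rescaled without Control replicate 4, 0 when rescaled without Control replicate 1 or with the length trend removed, and 0 to 1 when each sample was left out, as at the adjusted threshold. The median log2 fold change of the tested members was 0.15 with a filter of 5 TPM, where only Hes1 remained, -0.67 after rescaling, -0.66 with median-ratio size factors, -0.94 rescaled without Control replicate 4, and -0.56 with the length trend removed.

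Of 113 alternative values of single members, 17 changed sign, all of Notch1, Rbpj or Hes1. Notch1 was -0.15 rescaled, -0.14 with median-ratio size factors, and -0.44, -0.17, -0.14 and -0.15 rescaled without Control replicate 4 and SIGLEC12 replicates 2, 3 and 4. Rbpj was -0.053 and -0.023 rescaled without Control replicate 1 and SIGLEC12 replicate 2. Hes1 was -0.36 rescaled, -0.34 with median-ratio size factors, between -0.0069 (without Control replicate 1) and 0.30 when each sample was left out, -0.51 with the length trend removed, and -0.40, -0.32, -0.47, -0.41 and -0.20 rescaled without Control replicates 1 and 4 and SIGLEC12 replicates 2, 3 and 4. Over the alternatives the members' adjusted p ranged from 0.0421 (Notch3 without Control replicate 4) to 0.9901. Leaving out each sample, the share of Dll1 among ligands differed by -0.85 to 4.78 points and that of Hey1 by -3.98 to 0.071, both changing sign without Control replicate 1, while the other 7 shares kept their direction.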
